A study of Mus musculus with 6 samples.

Results

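The Notch pathway was followed by 10 genes in mouse ovary: the receptors Notch1, Notch2, Notch3 and Notch4, the ligands Jag1, Jag2 and Dll4, and the targets Hes1, Hey1 and Hey2. They were taken by gene symbol, and all 10 were found among the 56980 genes of the deposited table. The FNZ group held 3 libraries (replicates 2, 3 and 5) of ovaries from ICR mice, an outbred stock, that received FNZ by intraperitoneal injection each day at 30 mg/kg over 7 days. The control group held 3 libraries (replicates 2, 3 and 4) of ovaries from mice injected with the solvent, a mixture of polyethylene glycol and saline. The labels give the compound only as FNZ, name T-type calcium channels as the study's subject, and state neither the age of the mice nor their number. Whole ovary was sequenced as poly(A) RNA, and the labels do not say whether the 3 ovaries of a group came from separate mice, so p-values measure the spread between these samples only.

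Notch receptors are single-pass membrane proteins that are activated by ligands on a neighbouring cell. Binding leads to cleavage by an ADAM protease and then by γ-secretase, and the freed intracellular domain joins the DNA-binding protein RBPJ and a Mastermind coactivator to switch on target genes of the Hes and Hey families. In mouse ovary, granulosa cells carry Notch2 and oocytes carry Jag1, and this pair acts in the breakdown of germ cell nests and in follicle growth. Notch1, Notch4 and Dll4 are genes of the endothelium in growing vessels, and Notch3 is a gene of the mural cells around them.

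The RefSeq promoter table (build GRCm38.p6, 250 bases before to 50 bases after each start) had entries for 8 members, all but Hes1 and Hey1. Below are the promoter of Hey2, the most abundant of the 3 targets, and those of Notch1, Notch2 and Notch3, the receptors with lower counts in every FNZ library. The letters CGTGGGAA, a form of the site that RBPJ binds, were searched on both strands, and so was the shorter TGGGAA that lies within them. Capitals mark the CGTGGGAA matches, which are descriptions of the letters and no evidence of binding.
Hey2, chr10:30842734-30843033, minus strand: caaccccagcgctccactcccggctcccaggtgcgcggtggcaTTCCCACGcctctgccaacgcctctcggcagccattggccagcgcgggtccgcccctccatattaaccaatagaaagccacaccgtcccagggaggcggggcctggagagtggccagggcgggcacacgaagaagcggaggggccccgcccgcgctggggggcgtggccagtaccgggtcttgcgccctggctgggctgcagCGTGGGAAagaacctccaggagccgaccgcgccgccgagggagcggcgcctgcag
Notch1, chr2:26503773-26504072, minus strand: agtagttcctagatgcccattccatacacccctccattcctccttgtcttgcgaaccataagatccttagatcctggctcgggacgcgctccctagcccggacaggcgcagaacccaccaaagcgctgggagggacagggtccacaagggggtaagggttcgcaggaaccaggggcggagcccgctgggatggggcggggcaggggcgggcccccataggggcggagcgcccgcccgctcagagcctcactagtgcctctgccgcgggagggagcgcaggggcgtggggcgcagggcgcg
Notch2, chr3:98013288-98013587, plus strand: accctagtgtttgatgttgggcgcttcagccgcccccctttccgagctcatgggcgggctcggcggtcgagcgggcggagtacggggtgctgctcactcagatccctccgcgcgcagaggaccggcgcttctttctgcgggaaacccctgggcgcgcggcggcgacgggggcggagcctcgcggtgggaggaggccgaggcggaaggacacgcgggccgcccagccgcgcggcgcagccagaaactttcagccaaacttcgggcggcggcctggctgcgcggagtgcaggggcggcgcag
Notch3, chr17:32166841-32167140, minus strand: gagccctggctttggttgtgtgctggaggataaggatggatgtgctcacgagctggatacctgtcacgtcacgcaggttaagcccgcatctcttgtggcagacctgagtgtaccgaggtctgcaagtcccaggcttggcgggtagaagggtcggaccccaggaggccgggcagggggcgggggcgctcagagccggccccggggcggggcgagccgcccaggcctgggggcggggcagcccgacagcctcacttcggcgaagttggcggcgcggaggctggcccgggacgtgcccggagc
The Hey2 window held 2 CGTGGGAA matches, 1 on each strand, with their first bases at -207 and -5 from the start. Of all 32851 promoters of this length, 241 (0.734%) held the 8 letters at least 1 time and 4 (0.0122%) held them 2 or more times. The 6-letter TGGGAA was in 25.6% of promoters, and the windows of Notch1, Notch2, Notch3, Notch4, Jag1, Jag2 and Dll4 held neither form. GC content was 68.3% for Notch1, 73.0% for Notch2, 70.0% for Notch3 and 72.0% for Hey2.

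Expected counts summed to 19333493 to 22587113 per FNZ library and 22027408 to 23406628 per control library. Granulosa and oocyte markers were present in every library, with Inha, a granulosa gene, between 3212 and 3795 TPM (transcripts scaled for gene length and library size). Control replicate 4 held 389.6 TPM over 5 oviduct epithelium genes, against 3.88 to 24.2 TPM in the other 5 libraries. It led in surface epithelium genes too. FNZ replicate 3 led in the summed mural markers, with 2867 TPM against 1179 to 1702 TPM elsewhere. It also led in theca markers, with 5066 TPM against 3089 to 3572 TPM, and in granulosa markers. In luteal and blood markers it led by a narrow margin. Of the FNZ libraries it lay closest to the controls in Notch1, Notch2 and Notch3.

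The comparison of FNZ with control asks what the compound does to the ovary's transcripts. Notch1, Notch2, Notch3 and Dll4 had lower counts in all FNZ libraries than in any control library, while the other 6 members overlapped between the groups. None of the 10 passed edgeR's quasi-likelihood test at a Benjamini-Hochberg adjusted p under 0.05, where 0% of the 17735 tested genes passed in either direction. At an unadjusted p under 0.05 there were 3 members lower (Notch1, Notch2 and Notch3) and 0 higher, against 11.2% and 12.0% of tested genes. DESeq2 called Notch1 and Notch2 lower and none higher, where it called 5.57% of genes lower and 4.54% higher. The groups did not overlap in 4 members on the lower side and 0 on the higher side, against 13.8% and 15.8% of tested genes. In TPM this held for 3 members on the lower side (Notch1, Notch2 and Dll4) and 0 on the higher, against 25.4% and 6.14% of tested genes. The median log2 fold change (FNZ over control) was -0.20 over the 10 members and 0.01 over all tested genes. With the trend of each library on gene length removed, these medians were -0.12 and 0.03.

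**Figure D1:**
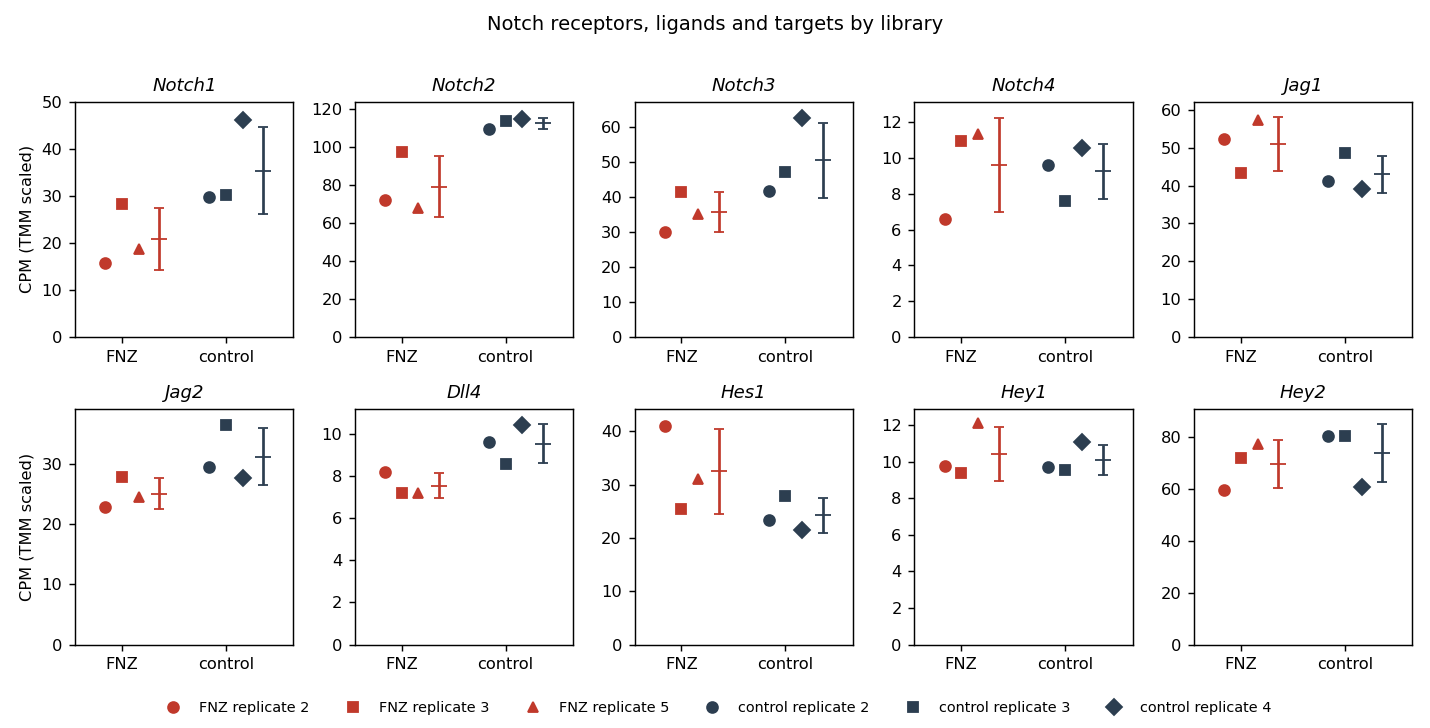
Counts scaled to TMM-adjusted library sizes (CPM, y axis from 0) of the 10 members in each library, FNZ in red and control in dark blue, with the mean and SD of 3 libraries at the right of each group. All FNZ points of Notch1, Notch2, Notch3 and Dll4 lie under all control points, by a narrow margin for Notch3 (41.6 CPM in FNZ replicate 3 and 41.9 CPM in control replicate 2).

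Among the receptors, Notch2, the granulosa receptor, had the most counts. It measured 72.3, 97.6 and 68.0 CPM in FNZ replicates 2, 3 and 5, against 109.4, 113.8 and 114.8 CPM in control replicates 2, 3 and 4. The controls were close together, and FNZ replicate 3 lay between them and the other FNZ libraries. FNZ over control, the log2 fold change was -0.51 ± 0.14 (SE of the fit), with an adjusted p in edgeR of 0.133. DESeq2 gave Notch2 an adjusted p of 0.0317, where it called 825 of 14799 genes (5.57%) lower. The authors' deposited table lists a log2 fold change of -0.53 and an adjusted p of 0.0317. It puts 822 genes under 0.05 on the lower side. They are 1.44% of all its 56980 genes, but 24519 of those 56980 had no counts in any library.

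Notch1, needed for vessel formation and for many cell fate choices, measured 15.8, 28.4 and 18.8 CPM in FNZ replicates 2, 3 and 5, against 29.9, 30.2 and 46.2 CPM in control replicates 2, 3 and 4. The gap between FNZ replicate 3 and the nearest controls was small, and control replicate 4, the library with oviduct genes, was far above the rest. The log2 fold change was -0.75 ± 0.26 with an adjusted p in edgeR of 0.163, and -0.52 without control replicate 4. In DESeq2 the adjusted p of Notch1 was 0.0467, as it was in the authors' deposited table, which lists a log2 fold change of -0.77.

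Notch3, the receptor of vascular smooth muscle and pericytes, measured 30.1, 41.6 and 35.3 CPM in FNZ replicates 2, 3 and 5, against 41.9, 47.3 and 62.6 CPM in control replicates 2, 3 and 4. Its groups were separate by less than 1 CPM, with control replicate 4 again highest. FNZ over control, the log2 fold change was -0.50 ± 0.18 (adjusted p in edgeR = 0.167), or -0.32 without control replicate 4. In TPM the groups of Notch3 overlapped, with FNZ replicate 3 at 8.01 TPM and control replicate 2 at 7.71 TPM.

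Notch4, a receptor of endothelial cells, did not share the lower values of the other receptors. It measured 6.59, 10.9 and 11.3 CPM in FNZ replicates 2, 3 and 5, against 9.61, 7.59 and 10.6 CPM in control replicates 2, 3 and 4. FNZ libraries held both the lowest and the highest value. The log2 fold change was 0.06 ± 0.25 (adjusted p in edgeR = 0.913), and its sign turned when FNZ replicate 3 (-0.05), FNZ replicate 5 (-0.08) or control replicate 3 (-0.07) was left out.

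Gene length and FNZ replicate 3 both moved with these values. The receptors are long genes, at 9488 bases for Notch1, 10500 for Notch2, 8016 for Notch3 and 6591 for Notch4, against a median of 2705 bases over tested genes. When the trend of each library on gene length was removed, the log2 fold changes became -0.44 for Notch1, -0.18 for Notch2 and -0.21 for Notch3 (adjusted p in edgeR = 0.281, 0.405 and 0.455). Notch4 then stood at 0.30 (adjusted p in edgeR = 0.528). Without FNZ replicate 3, edgeR called Notch1 and Notch2 lower and 0 members higher, where it called 9.64% of genes lower and 7.99% higher. Their log2 fold changes were then -1.04 ± 0.22 and -0.69 ± 0.08 (adjusted p in edgeR = 0.0274 and 0.0104). With the length trend removed and FNZ replicate 3 left out, 0 members were called lower or higher, where 1.77% and 1.59% of genes were called.

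**Figure D2:**
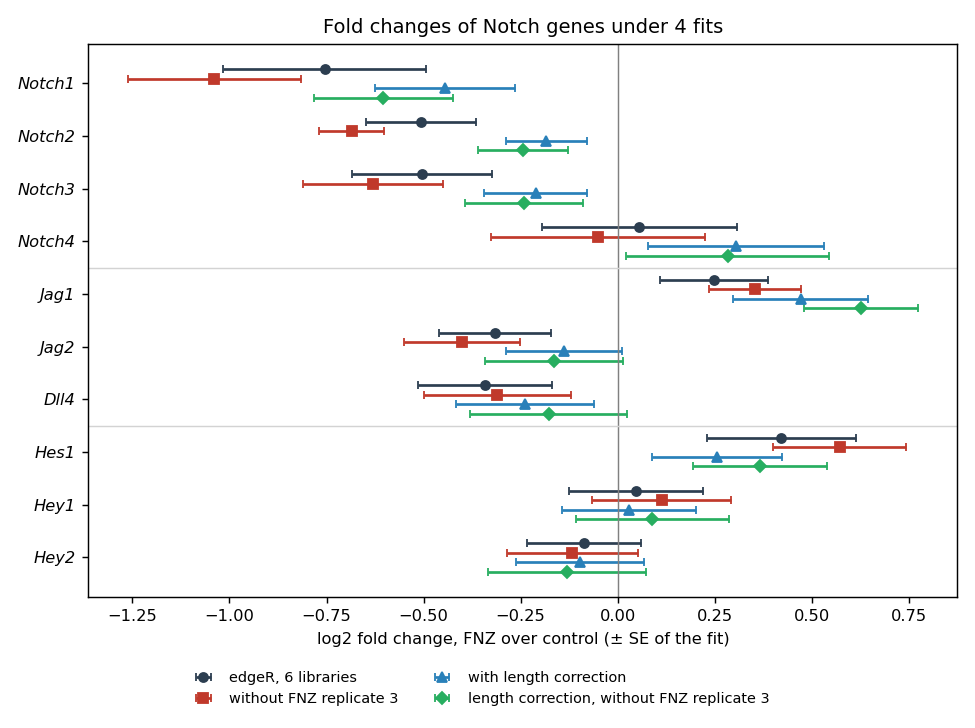
Log2 fold change of each member (x axis, FNZ over control, bars are the SE of the fit) in edgeR with all 6 libraries, without FNZ replicate 3, with the length correction, and with both. The values of Notch1, Notch2 and Notch3 stay under 0 in these fits and lie nearer to 0 with the length correction, while Jag1 moves away from 0, to 0.47 with all libraries.

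The 3 ligands went in different directions, and none was called. Jag1, the ligand made by oocytes and by vessels, measured 52.4, 43.3 and 57.5 CPM in FNZ replicates 2, 3 and 5, against 41.2, 48.6 and 39.0 CPM in control replicates 2, 3 and 4. FNZ replicate 3 fell inside the control range, and the other FNZ libraries lay above it. The log2 fold change of Jag1 was 0.25 ± 0.14 (adjusted p in edgeR = 0.319). It was 0.47 with the length correction and 0.63 when FNZ replicate 3 was also left out (adjusted p in edgeR = 0.253 and 0.0573). Smaller values came without FNZ replicate 5 (0.15) and from limma on TPM (0.06).

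Jag2, the second Jagged ligand, measured 22.8, 27.8 and 24.6 CPM in FNZ replicates 2, 3 and 5, against 29.5, 36.5 and 27.6 CPM in control replicates 2, 3 and 4. The groups met at FNZ replicate 3 and control replicate 4, which differed by less than 1 CPM. FNZ over control, the log2 fold change was -0.32 ± 0.14 (adjusted p in edgeR = 0.235), and it was -0.14 with the length correction and -0.19 without control replicate 3.

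Dll4, the ligand that restrains sprouting at vessel tips, measured 8.22, 7.19 and 7.21 CPM in FNZ replicates 2, 3 and 5, against 9.61, 8.60 and 10.4 CPM in control replicates 2, 3 and 4. All FNZ libraries lay lower, and FNZ replicate 3 did not stand between the groups as it did for Notch1, Notch2 and Notch3. The log2 fold change was -0.34 ± 0.17 (adjusted p in edgeR = 0.278), -0.31 without FNZ replicate 3 and -0.24 with the length correction. Counts of Dll4 ran from 138 to 162 per FNZ library and from 196 to 234 per control library, fewer in sum than for any other member, so its values carry more counting error than those of Notch2.

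None of the 3 targets was called. Hes1, a repressor that responds to Notch and to other signals, measured 41.0, 25.4 and 31.0 CPM in FNZ replicates 2, 3 and 5, against 23.3, 27.9 and 21.5 CPM in control replicates 2, 3 and 4. FNZ replicate 3 lay inside the control range and the other FNZ libraries above it, the same libraries as for Jag1. FNZ over control, the log2 fold change was 0.42 ± 0.19 (adjusted p in edgeR = 0.237). It was 0.57 without FNZ replicate 3, 0.23 without FNZ replicate 2 and 0.26 with the length correction.

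Hey1, a target in endothelial cells, measured 9.79, 9.42 and 12.1 CPM in FNZ replicates 2, 3 and 5, against 9.70, 9.56 and 11.1 CPM in control replicates 2, 3 and 4. The groups covered almost the same range, and the log2 fold change was 0.05 ± 0.17 (adjusted p in edgeR = 0.893). Its sign turned without FNZ replicate 5 (-0.08) and in limma on TPM (-0.18). Hey2, whose promoter with 2 RBPJ-type matches is shown above, measured 59.5, 72.1 and 77.2 CPM in FNZ replicates 2, 3 and 5, against 80.3, 80.6 and 60.9 CPM in control replicates 2, 3 and 4. Control replicate 4 lay beside FNZ replicate 2, below the other 4 libraries. The log2 fold change of Hey2 was -0.09 ± 0.15 (adjusted p in edgeR = 0.752) and turned to 0.03 without FNZ replicate 2.

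Levels can be set between genes only per length, here in TPM. In FNZ ovaries the order from the highest mean was Hey2 at 36.9 ± 7.46 TPM (SD, n = 3), Hes1 at 34.3 ± 4.74, Jag1 at 15.0 ± 1.55, Jag2 at 10.7 ± 2.16, Notch2 at 9.51 ± 2.93, Notch3 at 6.70 ± 1.28, Hey1 at 5.93 ± 0.911, Notch4 at 3.65 ± 1.16, Notch1 at 3.23 ± 0.794 and Dll4 at 2.60 ± 0.175 TPM. In control ovaries it was Hey2 at 46.1 ± 6.60 TPM (SD, n = 3), Hes1 at 30.4 ± 2.73, Notch2 at 15.9 ± 0.570, Jag1 at 14.4 ± 2.22, Jag2 at 14.0 ± 1.53, Notch3 at 9.40 ± 2.06, Hey1 at 6.86 ± 0.951, Notch1 at 5.91 ± 1.32, Dll4 at 4.07 ± 0.491 and Notch4 at 3.25 ± 1.17 TPM. Neighbours in this order whose ranges overlapped in both groups were Notch3 and Hey1. In FNZ ovaries the ranges of Hey2 and Hes1 overlapped too, and in control ovaries they did not. Notch2 came after Jag2 in FNZ ovaries, with a range that met those of Jag2 and Notch3. It came ahead of Jag1 in control ovaries, with a range that met those of Jag1 and Jag2. In RPKM from counts and deposited lengths, Notch2 came ahead of Jag2 in FNZ ovaries, at a mean of 7.55 against 4.91 RPKM, so their order there depends on the scale. TPM puts the median gene lower in FNZ libraries, with a log2 difference of -0.18 (log2 of TPM + 1, limma), so the members are compared between groups on counts. Sums over marker lists are given in TPM, with the log2 ratio of summed CPM beside them for the lists that bear on a member and where p changed most, an alternative chosen after seeing the data.

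**Figure D3:**
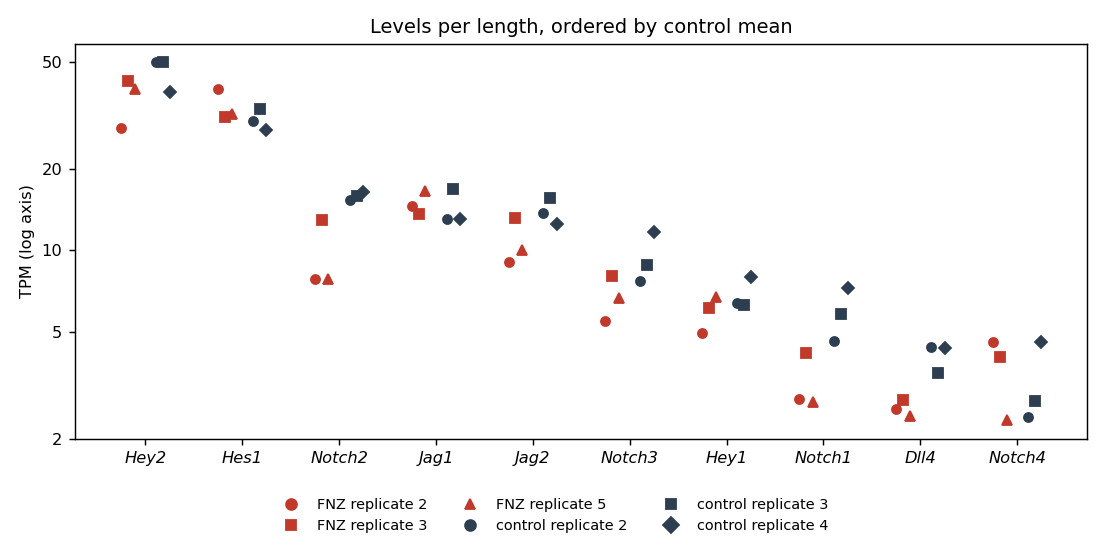
TPM (log axis) of the 10 members in each library, ordered by the control mean, with FNZ libraries in red at the left of each gene and control libraries in dark blue at its right. Hey2 and Hes1 lie above 27 TPM in each library and the receptors under 17 TPM.

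The receptors together summed to 20.6, 29.1 and 19.6 TPM in FNZ replicates 2, 3 and 5, against 30.1, 33.3 and 40.0 TPM in control replicates 2, 3 and 4. Notch4 is uncertain within that sum, since its TPM went against its counts. FNZ replicate 2 had the fewest Notch4 counts (126) but the joint highest TPM (4.59, as in control replicate 4). Set against the median gene, the ratio of counts to TPM corresponds to a transcript of 1890 bases for Notch4 in FNZ replicate 2 and of 4060 to 6850 bases in the other libraries. Hey2, by contrast, had 2760 to 2790 bases in all 6, so the length assigned to Notch4 varied between libraries and that of Hey2 hardly did. Notch1 varied as well, at 7410, 11100 and 9690 bases in FNZ replicates 2, 3 and 5, against 11100, 8870 and 11200 bases in control replicates 2, 3 and 4, and Notch3 ran from 7290 to 8440 bases in FNZ and from 9200 to 9430 bases in control libraries. Among the ligands, Jag2 ran from 3330 to 3480 bases in FNZ and from 3670 to 4010 bases in control libraries, under its deposited 5106 bases. TPM values of these 3 receptors and of Jag2, in the shares of the endothelial sum too, carry that variation.

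In bulk ovary, fewer cells of a type and less RNA per cell cannot be told apart. The 13 endothelial markers were all measured, and their summed TPM was 275, 364 and 263 in FNZ replicates 2, 3 and 5, against 381, 296 and 404 in control replicates 2, 3 and 4 (two-sided exact permutation p = 0.2, where 3 against 3 cannot go below 0.1). By edgeR log2 fold change 9 of the 13 were negative and 4 positive, and 0 were called. Egfl7 and Sox18, the most abundant of them, had log2 fold changes of 0.09 ± 0.17 and -0.09 ± 0.10 (adjusted p in edgeR = 0.775 and 0.585). Arterial endothelial markers summed to 43.9 to 45.8 TPM in FNZ and 49.2 to 62.1 TPM in control libraries (two-sided exact permutation p = 0.1). In summed CPM that separation was absent, with a log2 ratio of -0.03 (exact permutation p = 0.7) against -0.27 in TPM. Of the 6 arterial genes 5 were tested, and 2 had positive and 3 negative log2 fold changes. The positive ones were the most abundant of the list, Gja4 with 0.17 ± 0.16 and Sox17 with 0.16 ± 0.28.

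A share of the endothelial sum removes a TPM shift common to all genes of a library, but it holds no length correction. On this scale Notch1 stood at 1.02%, 1.14% and 1.04% in FNZ replicates 2, 3 and 5, against 1.22%, 1.97% and 1.80% in control replicates 2, 3 and 4. Notch2 stood at 2.84%, 3.54% and 2.98% in FNZ libraries, against 4.02%, 5.37% and 4.07% in control libraries. Dll4 stood at 0.943%, 0.763% and 0.923% in FNZ libraries, against 1.15%, 1.18% and 1.07% in control libraries. In these 3 genes every FNZ library lay under every control library, and the log2 differences were -0.61, -0.52 and -0.38, with a two-sided exact permutation p of 0.1 each (Benjamini-Hochberg adjusted p = 0.333 over the 10 members). How many of all genes are separate on this scale was not computed. In TPM alone 25.4% of tested genes lay lower. Against the list's geometric mean Dll4 stood at -0.27 (exact permutation p = 0.2), and Notch1 and Notch2 at -0.50 and -0.41 (exact permutation p = 0.1 each). As a share of the sum, Notch3 overlapped, with a log2 difference of -0.22 and an exact permutation p of 0.3. The remaining 6 members overlapped as well, with log2 differences from -0.13 for Jag2 to 0.43 for Notch4 and for Hes1. Without FNZ replicate 2 the log2 difference was 0.18 for Notch4 and 0.26 for Hes1, without control replicate 2 it was 0.20 for Notch4, and without control replicate 4 it was 0.28 for Hes1.

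**Figure D4:**
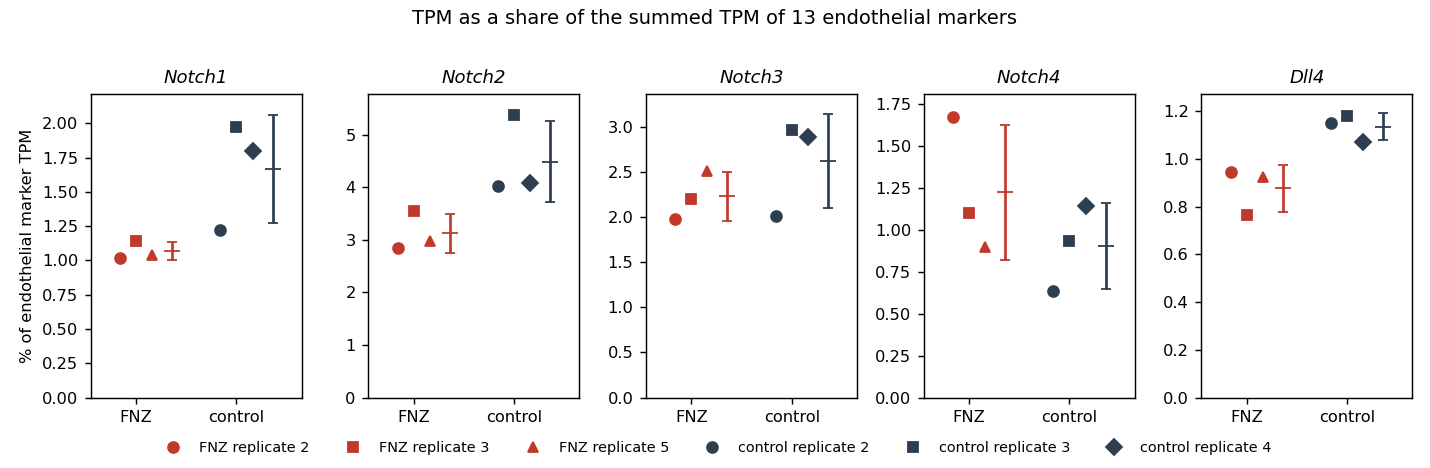
TPM of the 4 receptors and Dll4 as a percentage of the summed TPM of 13 endothelial markers (y axis from 0) in each library, with the mean and SD of 3 libraries at the right of each group. The FNZ points of Notch1, Notch2 and Dll4 lie under the control points, and those of Notch3 and Notch4 overlap with them.

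Mural markers, which accompany Notch3, summed to 1547, 2867 and 1179 TPM in FNZ replicates 2, 3 and 5, against 1539, 1561 and 1702 TPM in control replicates 2, 3 and 4 (exact permutation p = 0.9). Acta2 and Tagln led, with 1390 and 811.5 TPM of the sum in FNZ replicate 3. Granulosa markers, which accompany Notch2, summed to 4356 to 5358 TPM in FNZ and 4557 to 4629 TPM in control libraries (exact permutation p = 0.7), a log2 ratio of 0.07. Inha alone gave 3212 to 3795 TPM of these sums. In summed CPM the granulosa log2 ratio was 0.28 (exact permutation p = 0.1). The leading genes Inha and Hsd17b1 had log2 fold changes of 0.31 ± 0.11 and 0.60 ± 0.13 (adjusted p in edgeR = 0.155 and 0.131). Oocyte markers, which accompany Jag1, summed to 334 to 667 TPM in FNZ and 434 to 667 TPM in control libraries (exact permutation p = 0.7), led by Gdf9 and Zp3. Surface epithelium markers were at 34.8 to 71.3 TPM in FNZ and 59.2 to 185 TPM in control libraries, led by Krt8 and Krt19, and macrophage markers at 73.4 to 96.0 TPM and 86.6 to 176 TPM, led by C1qa and Cd68 (exact permutation p = 0.2 and 0.3). Stroma, theca, luteal, adipocyte and blood lists had exact permutation p from 0.2 to 0.6 in TPM. For theca the log2 ratio was 0.25 in TPM (exact permutation p = 0.6) and 0.39 in summed CPM (exact permutation p = 0.1). Without FNZ replicate 3 the theca ratio in TPM was 0.01. By edgeR log2 fold change 3 theca genes were positive and 3 negative. Hsd3b1 alone gave 2540 to 2933 TPM of the theca sum in FNZ and 1440 to 2156 TPM in control libraries, followed by Cyp11a1. The log2 ratio in summed CPM was 0.41 for mural markers (0.22 in TPM), 0.14 for oocyte markers (-0.11 in TPM), -0.15 for endothelial markers (-0.26 in TPM) and -0.05 for stroma markers (-0.30 in TPM), with exact permutation p from 0.4 to 0.8. Of the members of these 13 lists, 0 were called by edgeR, and their part in the values of the Notch genes was not tested.

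The other genes of the pathway were taken as a list of 67, of which 62 were tested. Of these, edgeR called 0 higher and 0 lower, with 7 higher and 15 lower at an unadjusted p under 0.05, where 12.0% and 11.2% of all tested genes were. DESeq2 called 6 higher and 6 lower, against 4.54% and 5.57% of all genes. In 8 genes every FNZ library lay above every control library in CPM, and in 14 below, against 15.8% and 13.8% of all tested genes. The median log2 fold change was -0.06, against 0.01 over all tested genes. Without FNZ replicate 3 edgeR called 7 higher and 10 lower, against 7.99% and 9.64% of all genes.

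All 9 tested genes of the nuclear complex had negative log2 fold changes, with a median of -0.30, or -0.09 with the length correction, and in 6 of them the groups did not overlap in CPM. Over all 17735 tested genes 8659 log2 fold changes were negative, and 13.8% of genes did not overlap on the lower side. Rbpj, the DNA-binding protein on which Notch acts, measured 76.6 ± 9.09 CPM in FNZ and 114.7 ± 12.9 CPM in control ovaries (SD, n = 3 each), with a log2 fold change of -0.58 ± 0.13 (adjusted p in edgeR = 0.131, DESeq2 adjusted p = 0.00745). Ep300, an acetyltransferase recruited by Mastermind, had a log2 fold change of -0.48 ± 0.13 (adjusted p in edgeR = 0.132). With the length correction these were -0.38 and -0.17.

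The corepressors split. Spen, a repressor that binds RBPJ, had a log2 fold change of -0.95 ± 0.18, and Tle2, a Groucho-type corepressor that Hes proteins recruit, had 0.99 ± 0.22 (adjusted p in edgeR = 0.131 each, DESeq2 adjusted p = 0.000553 and 0.00291). With the length correction Spen stood at -0.61 and Tle2 at 1.01. Over the 11 corepressors 5 log2 fold changes were positive and 6 negative.

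Of the other ligand genes, 6 of 7 tested were positive. Mfap5 and Mfap2, microfibril proteins that bind Jagged and Notch, had log2 fold changes of 0.83 ± 0.17 and 0.45 ± 0.12 (adjusted p in edgeR = 0.131 and 0.132). Mib1, the ubiquitin ligase that drives ligand endocytosis, had -0.49 ± 0.13 (adjusted p in edgeR = 0.132) and its relative Mib2 0.11 ± 0.08 (adjusted p in edgeR = 0.446). With the length correction Mfap5 stood at 0.67, Mfap2 at 0.21, Mib1 at -0.17 and Mib2 at 0.20. Pofut1, which adds O-fucose to the receptors, had -0.39 ± 0.13, and Lfng, the fringe enzyme that extends it, had -0.33 ± 0.38 (adjusted p in edgeR = 0.145 and 0.630), and with the length correction they stood at -0.19 and -0.35.

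Among the receptor proteases 3 log2 fold changes were positive and 6 negative. Psenen, the smallest subunit of γ-secretase, had a log2 fold change of 0.56 ± 0.17, and Furin, which cleaves the receptor on its way to the surface, had -0.36 ± 0.12 (adjusted p in edgeR = 0.138 and 0.160), and with the length correction they stood at 0.27 and -0.22. Of the genes of receptor turnover, Dtx3, a Deltex-family protein, had 0.59 ± 0.13, and Itch, a ubiquitin ligase that acts on Notch, had -0.47 ± 0.13 (adjusted p in edgeR = 0.131 and 0.133). The length correction left Dtx3 at 0.51 and Itch at -0.28.

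The other targets overlapped between the groups in CPM in all 7 tested genes, while in TPM Bhlhe40 lay lower in every FNZ library. Bhlhe40, a transcriptional repressor, had a log2 fold change of -0.46 ± 0.17, and Nrarp, a target that restrains Notch by feedback, had 0.43 ± 0.23 (adjusted p in edgeR = 0.177 and 0.303). Heyl, named after its values were seen, had a higher mean than Hey2, at 44.6 ± 7.82 TPM in FNZ and 61.7 ± 12.3 TPM in control ovaries (SD, n = 3 each). Its range overlapped that of Hey2 in both groups. The log2 fold change of Heyl was -0.20 ± 0.20 (adjusted p in edgeR = 0.573).

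**Figure D5:**
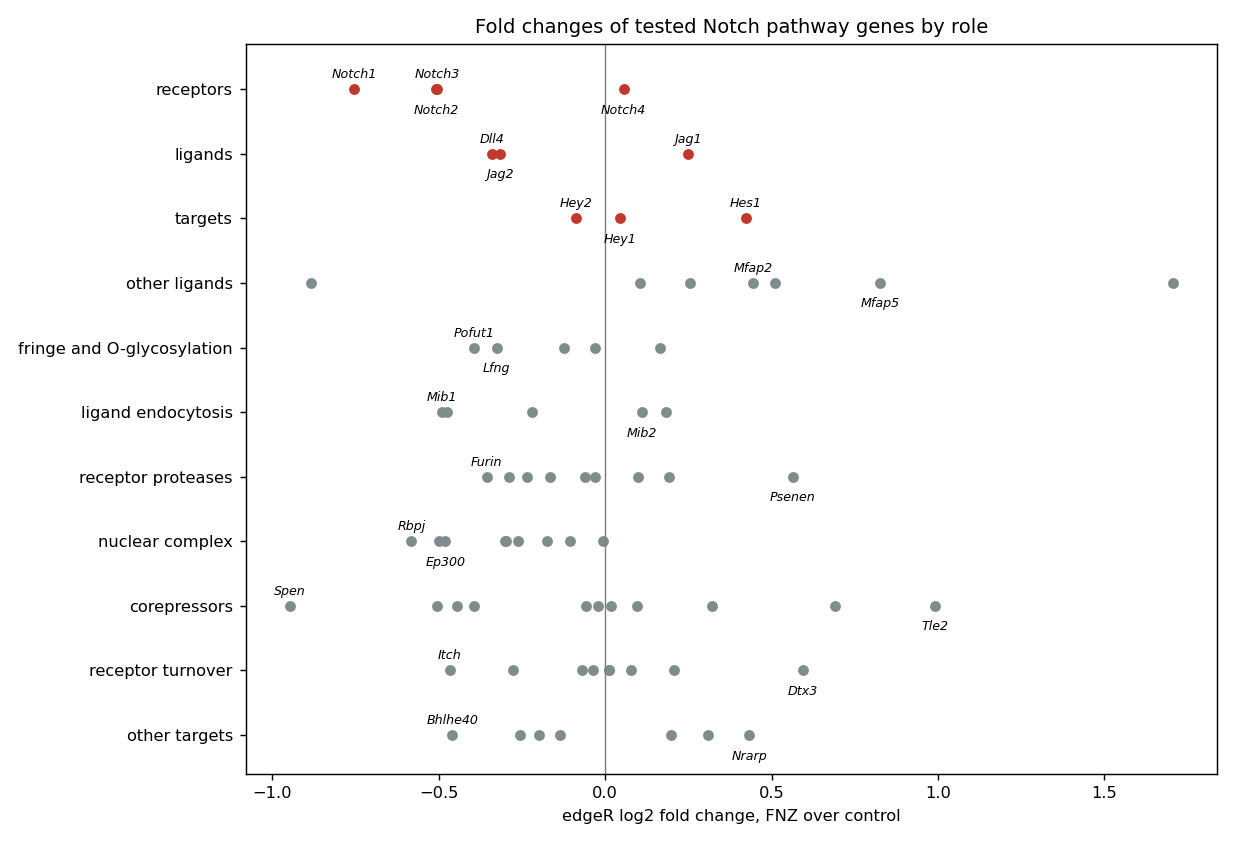
EdgeR log2 fold change (x axis, FNZ over control) of each tested gene of the pathway, 1 point a gene, grouped by role, with the 10 members in red. The 9 genes of the nuclear complex lie under 0, and the corepressors spread from Spen at -0.95 to Tle2 at 0.99.

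The genes whose values over the 6 libraries were most like those of a member were found by the mean absolute difference of log2 CPM, each gene centred on its own mean. For Notch2 these were Cplane1 and Ttc28, at 0.0215 and 0.0245 log2 units. For Jag1 they were Lsm6 and Mgat4b, at 0.0201 and 0.0221. The libraries share their depth and length trend between all genes, so this likeness is a description.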

How the data were processed

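Poly(A) RNA of 6 ovary libraries was sequenced in read pairs on an Illumina NovaSeq, per the labels' protocols. The submitters' processing notes list bcl2fastq 2.20 and the build GRCm39. Which aligner, counter, annotation release and strand setting the authors used is not given in the labels. The authors deposited expected counts per gene (12.0% to 14.8% of values per library are not whole), TPM summing to about 1000000 per library, and a gene length in bases. The authors' fold change, log2 fold change and p-values are attributed to DESeq2 1.38.3 from the submitters' processing notes, without a stated model.

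Group and replicate were read from each sample's title. Rounded expected counts went into edgeR 4.0.16 under R 4.3.3 (TMM scaling, filterByExpr, robust quasi-likelihood F test, two-sided, Benjamini-Hochberg adjustment over 17735 genes, calls at an adjusted p under 0.05), after the fits were tested on simulated data. The plan was written for counts and treats expected counts alike. All 10 members passed the filter on low counts. CPM uses TMM-scaled library sizes, and the SE is the log2 fold change divided by the root of the F value. For the length correction, each gene's log2 CPM was first centred on its own mean over the libraries. These deviations were smoothed on log2 gene length by loess (span 0.3) within every library, and the curve entered edgeR as an offset. A difference between the groups that follows gene length is removed with it. Alternatives used DESeq2 1.42.0, limma 3.58.1 (voom, and log2 of TPM with a pseudocount of 1), other scalings and filters, replicate blocks and libraries left out in turn. Exact permutation tests over libraries were used for marker sums. The members, gene lists, length correction and interest in FNZ replicate 3 were chosen with earlier results of these data known.

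The text names all members, for each role among the other pathway genes the 2 with the smallest edgeR p, for each marker list the 2 most abundant genes where a list is described, and for the most abundant receptor, ligand and target the 2 genes most alike (for the target this is not reported here). In GENCODE M21 (GRCm38), exons of Notch1, Notch3 and Dll4 share bases with a transcript on the opposite strand (0610009E02Rik and Gm13568, Gm17276, and Gm14207), and Notch2 shares 541 bases with Gm42820 on the same strand, so their counts are uncertain to that extent. Expected counts were not whole in 6 libraries for Notch1, 5 for Notch3 and 3 for Notch2, and were whole in all libraries for the other members.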

Additional observations from a re-analysis of the deposited data

How the results depend on the processing

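Over 20 alternatives, Notch1, Notch2, Notch3, Jag1, Jag2, Dll4 and Hes1 kept the sign of their log2 fold change, with ranges of -1.04 to -0.44, -0.72 to -0.18, -0.63 to -0.20, 0.06 to 0.63, -0.40 to -0.12, -0.49 to -0.18 and 0.16 to 0.57. Of the alternatives, 3 called each of Notch1 and Notch2, namely both DESeq2 fits and the fit without FNZ replicate 3, so 2 members were called with DESeq2 by default or on the filtered genes. Over the libraries left out in turn, 0 to 2 members, 0 to 17 other pathway genes and 0 to 3230 genes in all were called; without FNZ replicate 5 or control replicate 3 it was 1 gene. With the length correction and no FNZ replicate 3, 5 pathway genes and 615 genes were called. DESeq2 called 12 pathway genes and 1497 genes by default, and 14 and 1706 on the filtered genes. With no filter 4 pathway genes and 183 genes were called, and limma called 2 (voom) and 1 (TPM). The length correction alone gave 2 genes. The cause of these differences was not tested.

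Titles and library names number the libraries, and the labels do not say whether these numbers pair them. Same-numbered libraries did not deviate together (correlations of -0.0867, -0.15 and -0.337 by library name). With so few libraries in a group, these correlations cannot decide whether same-numbered samples belong together. A replicate block gave 24 genes by title number, 2 by library-name number and 4 by library-name number with the length correction, and 0 members. In the title block FNZ replicate 5 and control replicate 4 have no partner. Its fold changes therefore rest on replicates 2 and 3 of each group alone. No library correlated best with its own number.

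Signs near 0 turned for Notch4 (-0.0048 with the title block, and, with libraries left out in turn, -0.0788 to 0.275, under 0 without FNZ replicate 3, FNZ replicate 5 or control replicate 3), for Hey1 (-0.18 in limma on TPM, -0.0046 with the title block, -0.0754 to 0.113 with libraries left out in turn, under 0 without FNZ replicate 5) and for Hey2 (-0.212 to 0.0265 likewise, above 0 without FNZ replicate 2). Relative to the endothelial sum, they turned for Jag2 (-0.294 to 0.087 with libraries left out, above 0 without control replicate 3), Hey1 (-0.135 to 0.167, under 0 without FNZ replicate 5 or control replicate 2) and Hey2 (0.0348 against the list's geometric mean, and -0.285 to 0.127, above 0 without FNZ replicate 2 or control replicate 3). Among marker sums, as log2 ratios, they turned for mural (-0.0171 as a mean of log2 values, and -0.232 without FNZ replicate 3 to 0.463 without FNZ replicate 5), granulosa (-0.0838 as a mean of log2 values, -0.0103 without FNZ replicate 3), theca (-0.46 as a mean of log2 values), oocyte (0.14 in summed CPM, an alternative chosen after seeing the data, 0.10 and 0.09 without FNZ or control replicate 3), oviduct (-4.3 to 0.926) and adipocyte genes (-1.99 to 0.408), the last values of both without control replicate 4. With RPKM from counts and deposited lengths, 13 of the 20 ranks of level (10 members in each group) were as in TPM.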
